A study of Myzus persicae with 16 samples.

Results

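The transcripts described here are 150 array names of the green peach aphid Myzus persicae whose signal was higher after exposure to the alarm pheromone in aphids that had not lived with it, and changed little on average in aphids that had. They were chosen from measured values. For each name the log2 ratio of EBF-exposed over solvent-treated aphids was averaged over 4 arrays, once for Col-0-reared aphids (the non-habituated response) and once for EBFS-reared aphids (the habituated response). Names with a habituated response between -0.3 and 0.3 were kept, and the 150 with the highest non-habituated response of at least 0.3 were taken. The array carries 10489 names, of which 7223 were well above background in both channels of all 8 arrays used for this choice. Of those, 383 lay within both limits, and the 150 members make up 2.08% of the 7223.

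EBF, (E)-beta-farnesene, is the main component of the alarm pheromone that aphids release from their cornicles when attacked. Neighbouring aphids that perceive it stop feeding and walk away or drop from the plant. Animals kept in its constant presence can stop responding in this way, which is called habituation. Nothing in the files ties a name on this array to a gene or a probe sequence. Of the members, 145 are contigs and 5 carry other sequence identifiers. A RefSeq table of M. persicae genes (assembly MPER_G0061.0) matched 0 names of the array. The members are therefore described by their identifiers and values, with no product names and no sequences.

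RNA came from pools of 50 whole aphids of a red, tobacco-adapted strain, so that fewer cells of a type and less RNA per cell cannot be told apart. The 4 conditions were Col-0-reared aphids given EBF, EBFS-reared aphids given EBF, EBFS-reared aphids given hexane and Col-0-reared aphids given hexane. Colonies had lived for 6 months or longer on Arabidopsis thaliana, either the wild-type accession Col-0 or the transgenic line 35S:EBFS, in which a constitutive viral promoter drives an EBF synthase, with days of 16 h and nights of 8 h. Exposure was to 1 µg of EBF dissolved in hexane, or to hexane, for 30 min. Each of 16 arrays compared a pair of conditions in both dyes, with 4 arrays for each of 4 pairs and the dyes exchanged on 2 of the 4. Which arrays shared an extract is not given in the labels, and the error behind each p-value is the array-to-array spread, which may be partly technical.

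The 4 pairs form a closed loop. The non-habituated and habituated responses chose the members and are given as description, with no test. The other 8 arrays were not used in the choice. They compare Col-0-reared with EBFS-reared aphids, both given EBF, and EBFS-reared with Col-0-reared aphids, both given hexane. The sum of these 2 rearing differences equals, on the closed loop, the non-habituated minus the habituated response. These arrays took no part in the choice, but their conditions are shared with it: exposed Col-0-reared aphids enter the non-habituated response and the rearing difference with EBF, and solvent-treated Col-0-reared aphids enter the non-habituated response and the rearing difference in hexane. Same-numbered arrays of the non-habituated response and of the rearing difference with EBF deviated together from their means (r of 0.386 to 0.672 over all names), and so, less closely, did those of the habituated response and the same rearing difference (0.118 to 0.491). Same-numbered arrays of these pairs also have the same dye orientation, and no dye effect was taken out of the deviations. For the non-habituated response and the rearing difference with EBF, arrays of equal orientation but unlike number gave 0.388, 0.2, 0.204 and -0.103. In exposed Col-0-reared aphids the median signal of contig6552 was 52384, 18306, 24864.5 and 37399 on arrays 1 to 4 of the non-habituated response. It was 41902, 15260, 24201.5 and 32778 on the same-numbered arrays of the rearing difference with EBF. Whether these arrays share extracts is not given and was not tested. The values with EBF, and the sum that contains them, are therefore not taken as independent of those that chose the members. The first slide held the arrays of the non-habituated response and of the rearing difference with EBF, the second slide the others. Slide and array pair cannot be told apart.

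Among the members the non-habituated response ran from 0.52 to 2.72 on the log2 scale, or 1.44- to 6.58-fold, with a median of 0.72 (1.65-fold). It was over 1 in 31 members, and the quartiles were 0.60 and 0.94. The median over all 7223 names was 0.01. The habituated response of the members ran from -0.30 to 0.29 with a median of -0.01. The limits on it decided much of the membership: 399 names had a non-habituated response at least as high as the last member's, and 249 of these were left out, 137 for a habituated response at or above 0.3 and 112 for one at or below -0.3.

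The edges of the choice were narrow. The last member, contig4630, had a non-habituated response of 0.5235, and contig252, the first name left out, had 0.5229. The member with the highest habituated response, contig4756, had 0.2891, against 0.3053 for contig15319, which stayed outside. At the lower limit contig1483 had -0.2978 and was a member, against -0.3033 for contig8535, which was not.

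Array by array, the median member stood at 0.56, 0.78, 0.64 and 0.85 in the non-habituated response and at 0.12, -0.48, 0.28 and 0.04 in the habituated response. The non-habituated medians were above 0 on every array. The habituated medians had both signs, and array 2 was the low one, with 30 of 150 members above 0. A mean near 0 in EBFS-reared aphids thus came from values that differed between arrays. The SD over 4 arrays of a member had a median of 0.62 in the non-habituated response, against 0.28 over all names. In the habituated response these medians were 0.48 for members and 0.20 for all names.

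**Figure D1:**
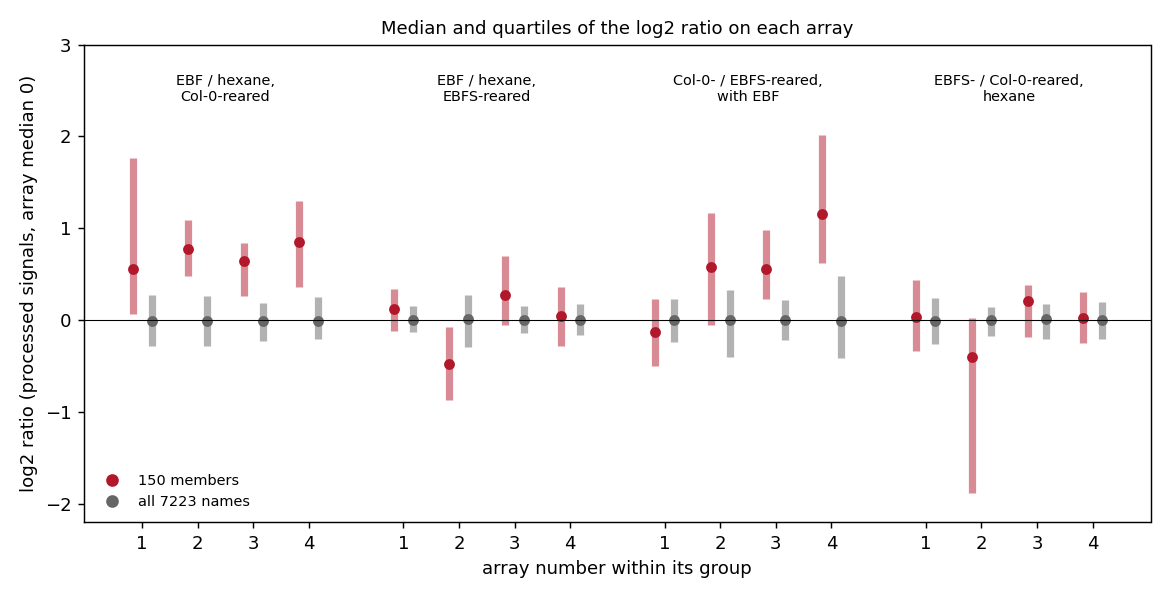
Median (point) and quartiles (bar) of the log2 ratio on each of the 16 arrays for the 150 members (red) and all 7223 names (grey), with each array's median over its probes set to 0. The members' median was above 0 on all 4 arrays of the non-habituated response, at -0.48 on array 2 of the habituated response and at -0.13 on array 1 of the rearing difference with EBF.

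Of the 150 members, 83 (55.3%) were above 0 on all 4 arrays of the non-habituated response, against 10.5% of all names. The choice itself favours such members, so nothing is read from this difference. No member was below 0 on all 4, where 11.8% of all names were. A further 59 were above 0 on 3 arrays and 8 on 2 arrays. In the habituated response 4 members were above 0 on all 4 arrays and 6 below, where 15.1% and 13.6% of all names were. The arrays were not equally responsible for a high mean: array 4 gave the highest value in 55 members, array 1 in 51, array 2 in 29 and array 3 in 15. Without array 1 the mean of 14 members fell below 0.3, and of 3 below 0. Without array 2 this held for 1 member below 0.3, without array 3 for 0 members and without array 4 for 6.

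The choice was repeated without each array of the non-habituated response, and the 150 names so chosen were read on the array left out. Names chosen on arrays 2, 3 and 4 had a median of 0.01 on array 1, where 77 of 150 (51.3%) were above 0, against 49.6% of all names. Names chosen without array 2 had a median of 0.58 on it, and 123 (82.0%) were above 0. The values were 0.32 with 97 names (64.7%) on array 3 and 0.39 with 109 names (72.7%) on array 4. Of all names 49.2%, 48.4% and 49.5% were above 0 on arrays 2, 3 and 4. On arrays 2, 3 and 4 the share above 0 was thus higher in names chosen without them than in all names. On array 1 it was close to that of all names. The choice had no dye term. Over all names, arrays of the same dye orientation correlated at r = 0.552 (2 and 4) and 0.321 (1 and 3). Arrays of opposite orientation correlated at 0.106, 0.052, 0.082 and 0.01. A dye effect on this reading was not tested, so nothing about the response is read from it. The same reading for the habituated response gave a median of -0.62 on array 2, with 32 of 150 names above 0, and medians of 0.07, 0.17 and 0.33 on arrays 1, 3 and 4.

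**Figure D2:**
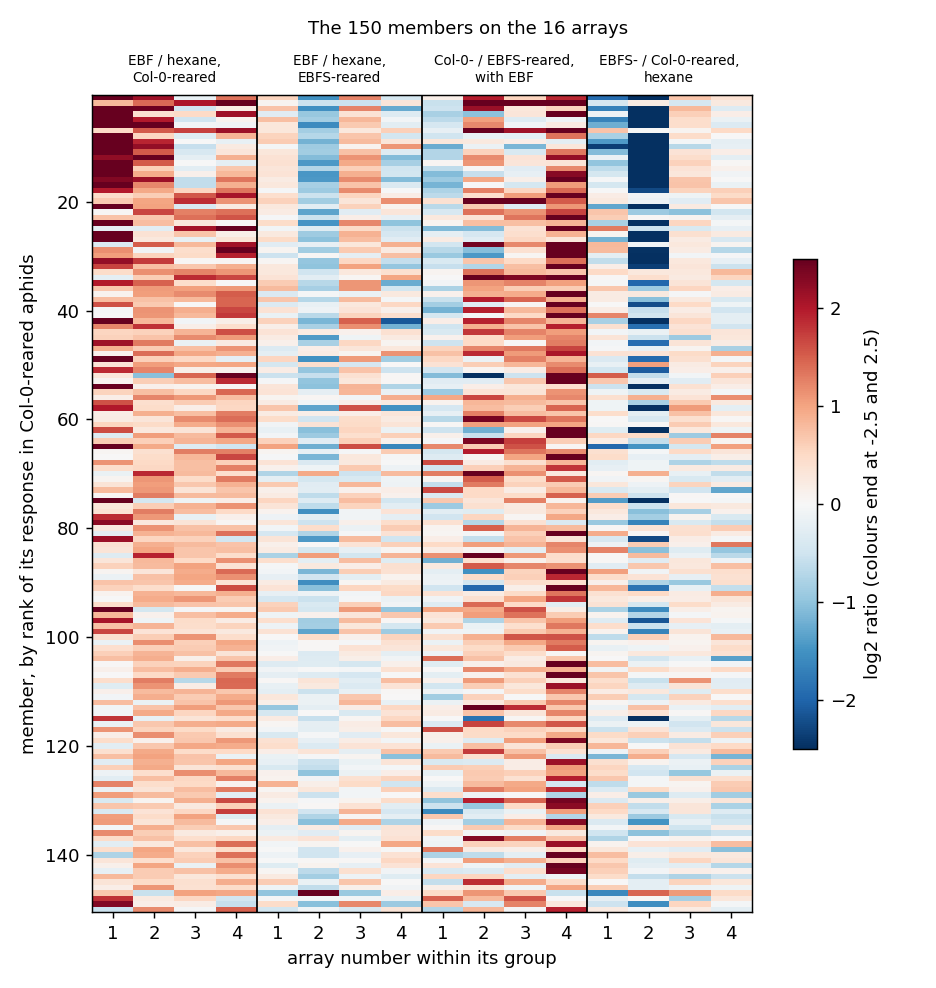
Log2 ratio of each of the 150 members (rows, ordered from the highest non-habituated response at the top) on the 16 arrays (columns, 4 for each pair of conditions). The topmost rows are red on array 1 of the non-habituated response and blue on array 2 of the rearing difference in hexane, while lower rows are spread more evenly over arrays 2, 3 and 4.

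The member with the highest non-habituated response was contig6552, with 7.59, 2.12, -0.19 and 1.35 on the 4 arrays (mean 2.72 ± 3.39, SD, n = 4). On array 1 its median signal was 52384 in exposed Col-0-reared aphids and 410 in solvent-treated ones, and on array 3 it was 24864.5 in exposed and 29822 in solvent-treated aphids. Its mean therefore rests on array 1, without which it was 1.09. In the habituated response contig6552 stood at 0.55, -1.52, 1.23 and -0.45. Its rearing difference in hexane, EBFS-reared over Col-0-reared, was -1.92, -7.28, 0.70 and 0.38. Array 2 of that pair had a signal of 189.5 in EBFS-reared and 25125.5 in Col-0-reared solvent-treated aphids, so solvent-treated Col-0-reared aphids were the low side on one of these arrays and the high side on the other.

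The second member by rank, contig3790, had a dimmer and more even pattern. Its non-habituated response was 0.81, 1.42, 2.02 and 3.32 (1.89 ± 1.07, SD, n = 4), above 0 on every array. Its habituated response was 0.08, -0.54, -0.54 and 0.31. The choice favours a lower habituated response, so nothing is read from this difference. At the low end of the set, contig878 had 2.31, 0.17, 0.19 and -0.57, and contig4630 had -0.54, 1.19, -0.03 and 1.48, so that both overlapped 0.

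**Figure D3:**
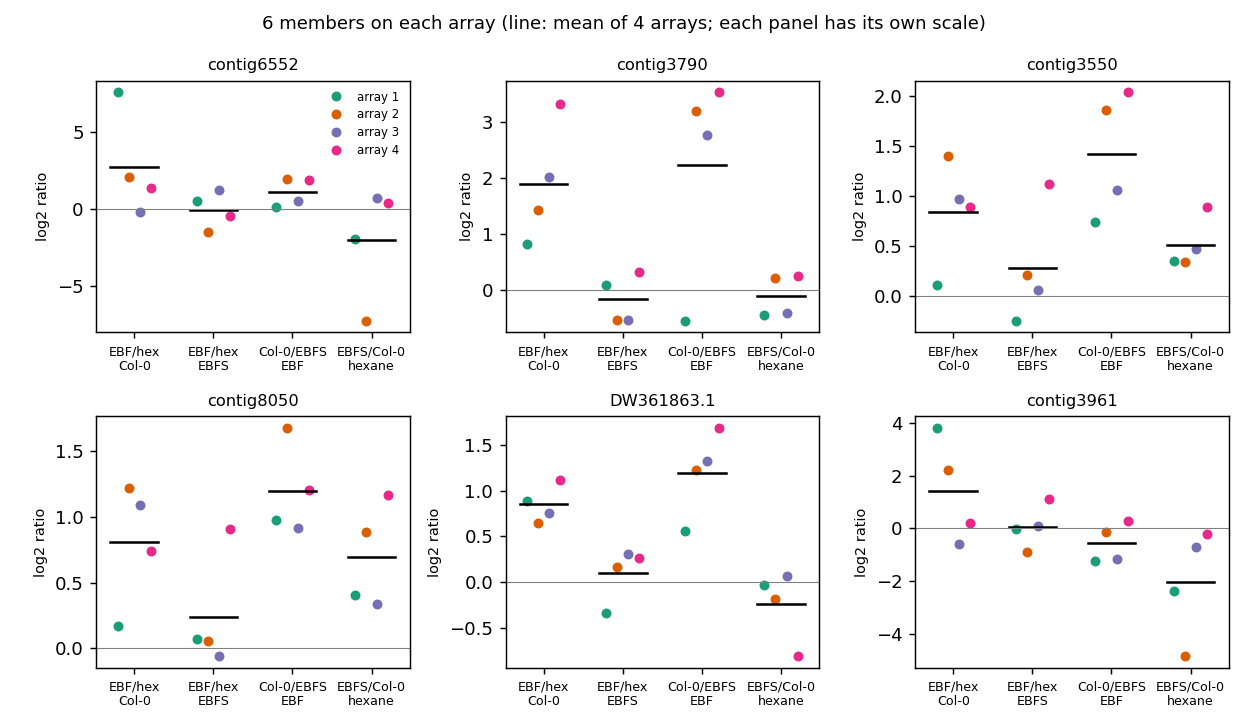
Log2 ratio of 6 members on each array of the 4 pairs of conditions, with points coloured by array number and a line at the mean of 4 arrays; each panel has its own scale. Contig6552 and contig3961 have their highest value on array 1 of the non-habituated response and their lowest on array 2 of the rearing difference in hexane, whereas DW361863.1 is above 0 on all 4 arrays of the non-habituated response and of the rearing difference with EBF.

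The pattern of contig6552 was shared by 31 members with a log2 ratio over 2 on array 1 of the non-habituated response, where 62 of all names (0.858%) were over 2. These 31 had a median of 3.27 on that array and of 0.92, -0.07 and 0.16 on arrays 2, 3 and 4. Without array 1 their response had a median of 0.40. On array 2 of the rearing difference in hexane they lay between -7.28 and -1.49, with a median of -3.27, and on arrays 1, 3 and 4 of that pair their medians were -0.80, 0.37 and -0.04. Both arrays have solvent-treated Col-0-reared aphids in the denominator and the same dye orientation, and over all names their ratios correlated at r = -0.515. Whether the direction of the second slide is as labelled is not settled by the arrays, so values with the second slide turned are given below as well. The 31 were brighter than the others, with a median log2 signal of 13.35 against 10.78 in the other 119 members. This split was made after the values were seen and carries no test.

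**Figure D4:**
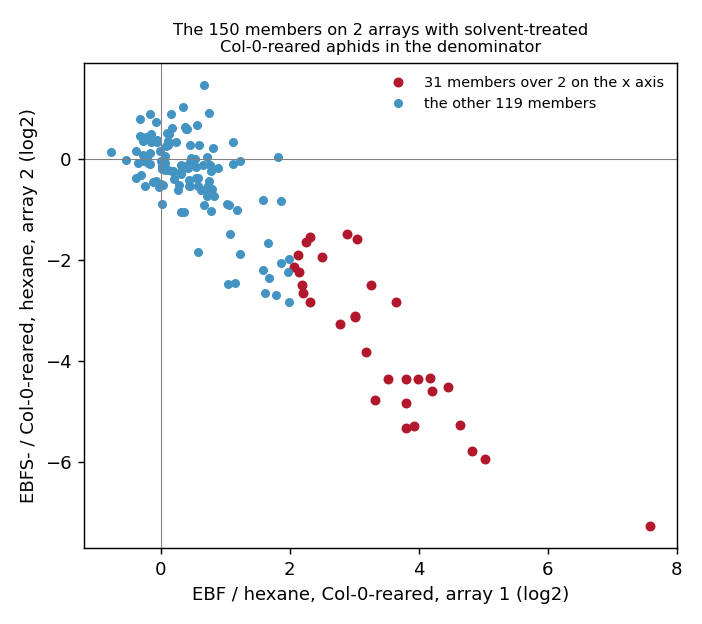
Log2 ratio of each of the 150 members on array 1 of the non-habituated response (x axis) and on array 2 of the rearing difference in hexane, EBFS-reared over Col-0-reared (y axis). The 31 members over 2 on the x axis (red) all lie at or below -1.49 on the y axis, down to -7.28 for contig6552, and the other 119 (blue) lie between -2.84 and 1.46.

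The comparison of Col-0-reared with EBFS-reared aphids, both exposed to EBF, asks how far the members differed between rearing histories under the pheromone. By the labelled dyes 141 of 150 members were above 0 and 9 below, with a fitted median of 0.57 (1.49-fold), against -0.0016 over all names, of which 49.6% were above 0. This direction is opposite to that of the authors' deposited table, where 141 members were below 0 with a median of -0.56 and the column correlated at r = -0.985 with the labelled direction. All 4 arrays of this pair ran opposite in the authors' series matrix too, and those of the other 3 pairs ran as labelled. With these arrays turned, the members' median would be -0.57. In the labelled direction this pair has exposed Col-0-reared aphids in the numerator, as the non-habituated response does. Same-numbered arrays of both, which also share a dye orientation, correlated at r = 0.678, 0.411, 0.571 and 0.772 over all names. Arrays of equal orientation but unlike number correlated at 0.455, 0.49, 0.306 and 0.106. Turning this pair would reverse these signs. In the channel labelled exposed Col-0-reared, contig3790 had median signals of 572, 1181, 1805 and 3328.5 on arrays 1 to 4 of this pair. It had 577, 1371, 1879 and 4216.5 on those of the non-habituated response. In the channel labelled exposed EBFS-reared it had 775, 242, 429 and 259.5. The direction was not tested further. In limma, 0 of 7223 names passed an adjusted p of 0.05 in this comparison, the smallest being 0.170. At an unadjusted p under 0.05, 66 members (44.0%) were higher in Col-0-reared aphids and 0 lower, against 8.14% and 6.26% of all names.

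Per array the members' medians in this pair were -0.13, 0.58, 0.56 and 1.16. Array 1 had the lowest member median, with 64 members above 0, while 108, 131 and 140 were above 0 on arrays 2, 3 and 4. On arrays 1 to 4, 49.6%, 49.9%, 49.8% and 49.4% of all names were above 0. Over all names array 1 correlated with arrays 2, 3 and 4 at r = 0.23, 0.501 and -0.335. Array 2 correlated with arrays 3 and 4 at 0.376 and -0.12, and array 3 with array 4 at 0.117. Arrays 1 and 3 share a dye orientation, as do arrays 2 and 4. On all 4 arrays 43 members (28.7%) were above 0 and 0 below, against 8.25% and 8.72% of all names. Without array 1, 24 names (0.332%) were higher at an adjusted p under 0.05 in limma, among them 9 members, and the members' median was 0.68. Without array 3 no name passed, and 37 members were higher at an unadjusted p under 0.05, where 4.13% of all names were.

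The smallest p above 0 belonged to DW361863.1, with 0.56, 1.22, 1.32 and 1.69 on the 4 arrays and a fitted value of 1.10 ± 0.16 (SE; limma adjusted p = 0.170). All of its arrays were above 0, and so were those of its non-habituated response, at 0.89, 0.64, 0.76 and 1.12. Its habituated response was -0.34, 0.16, 0.31 and 0.27. The choice favours a high non-habituated and a small habituated response, so nothing is read from this difference. Next came contig3550, at 0.74, 1.86, 1.06 and 2.04, with a fitted value of 1.18 ± 0.18 (SE; limma adjusted p = 0.170). Below 0 the smallest p values were those of contig8909 (-1.59, -0.37, -0.16 and 1.04) and contig3961 (-1.24, -0.14, -1.14 and 0.29), with limma adjusted p of 0.745 and 0.757. In both, array 4 had the opposite sign to the other 3.

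In solvent-treated aphids the members' median lay near that of all names, and their quartiles lay further apart. The fitted difference of EBFS-reared over Col-0-reared aphids had a median of -0.10, against -0.02 over all names. The quartiles were -0.51 and 0.15 in the members, against -0.14 and 0.08 over all names. Of the members 66 were above 0, where 45.9% of all names were. In limma 2 of 7223 names (0.0277%) were lower at an adjusted p under 0.05, neither of them a member. At an unadjusted p under 0.05, 4 members (2.67%) were higher and 6 (4.00%) lower, against 1.86% and 4.03% of all names. Without array 4 of this pair 28 members were lower at that p, where 2.12% of all names were. The lower tail was longer in the members: on array 2 alone 34 were under -2, where 1.45% of all names were. The members' medians by array were 0.04, -0.40, 0.20 and 0.03. On all 4 arrays 15 members were above 0 and 10 below, against 9.43% and 7.81% of all names.

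The highest members by p in solvent-treated aphids were contig8050, at 0.40, 0.89, 0.33 and 1.17 (fitted 0.66 ± 0.17, SE; limma adjusted p = 0.728), and contig776, at 0.48, 0.60, 0.21 and 0.60 (fitted 0.40 ± 0.12, SE; limma adjusted p = 0.728). The lowest were contig8245, at -0.50, -1.02, -0.69 and -0.54, and contig4603, at -0.94, -1.65, -0.38 and -0.60, with limma adjusted p of 0.618 and 0.732. All 4 kept 1 sign over the 4 arrays.

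The sum of both rearing differences gives the non-habituated minus the habituated response from arrays that did not choose the members. This sum contains the rearing difference with EBF, so it is not taken as independent of the values that chose the members. Its fitted median over the members was 0.43 (1.35-fold), against -0.03 over all names, with 107 members above 0 and 43 below. Of all names 45.7% were above 0. No name passed an adjusted p of 0.05 in limma, the smallest being 0.135. At an unadjusted p under 0.05, 40 members (26.7%) were higher and 2 lower, against 5.68% and 6.12% of all names. Without array 2 of the rearing difference in hexane, the median was 0.56 and 127 members were above 0, against 46.6% of all names. Of the members, 31 were higher at an unadjusted p under 0.05, where 4.01% of all names were. With the second slide turned the median was 0.74 and 146 members were above 0, against 53.0% of all names. Again 31 members were higher at an unadjusted p under 0.05, where 5.26% of all names were. With the arrays of the rearing difference under EBF turned instead, as in the authors' table, the median was -0.74 with 0 members higher and 31 lower at that p, where 2.85% and 5.26% of all names were.

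On processed signals and in the labelled direction the 31 members over 2 on array 1 of the non-habituated response had a median of -0.61, with 24 below 0. The other 119 members had a median of 0.71, with 16 below 0. With the second slide turned this order was the reverse: the 31 had a median of 1.47 with 0 below 0, and the other 119 a median of 0.67 with 6 below 0. In the rearing difference with EBF the same groups had medians of 0.31 and 0.66. The route around the loop (both rearing differences plus the habituated response) gave -0.93 for contig6552, against its measured non-habituated response of 2.72. For contig3790 it gave 1.95, against 1.89. With the second slide turned the route gave 3.22 for contig6552 and 2.51 for contig3790. Over the members, the measured response minus the route had a median of 0.13 and ran from -1.62 to 3.93 in the labelled direction. With the second slide turned it had a median of -0.04 and ran from -1.37 to 0.93. The choice favours a high measured response, so nothing about direction is read from these members' values. Over all names the SD of this difference was 0.59 in the labelled direction and 0.40 with the second slide turned.

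The sums above 0 with the smallest p were those of contig8050, at 1.69 ± 0.24 (SE; limma adjusted p = 0.135), and contig3550, at 1.65 ± 0.25 (SE; limma adjusted p = 0.135). With the second slide turned they were 0.37 for contig8050 and 0.72 for contig3550. Their non-habituated responses were 0.17, 1.22, 1.09 and 0.74 for contig8050 and 0.12, 1.41, 0.97 and 0.89 for contig3550, all above 0 and lowest on array 1. Below 0 the smallest p values belonged to contig3961 (-2.51 ± 0.87, SE; limma adjusted p = 0.325) and contig4603 (-0.87 ± 0.34, SE; limma adjusted p = 0.376), and with the second slide turned these were 1.36 and 0.73, above 0. The non-habituated response of contig3961 was 3.81, 2.20, -0.58 and 0.22 and that of contig4603 was 2.26, 0.26, 0.32 and 0.05, both highest on array 1.

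**Figure D5:**
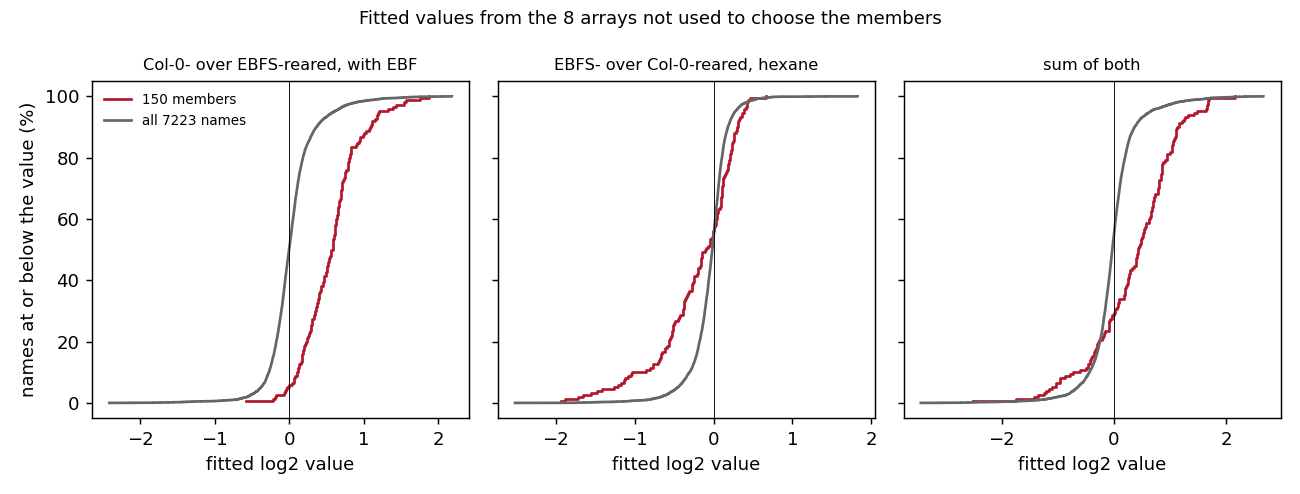
Share of names at or below each fitted log2 value for the 150 members (red) and all 7223 names (grey), from the 8 arrays not used to choose the members, in the directions of the labelled dyes. The members' curve lies to the right with EBF (median 0.57), has a long lower tail in hexane (median -0.10) and spans both signs in the sum (median 0.43). The values with EBF and the sum are not taken as independent of the choice.

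The members were not brighter than the rest, with a median log2 signal of 11.15, against 11.38 over all names. A second probe was present for 54 members (36.0%), against 46.4% of all names. The probes of such a member differed in their non-habituated response by a median of 0.03, and by at most 0.59, in contig1328. Saturated spots on the second slide touched 16 members (10.7%), against 6.40% of all names. On the first slide no probe was saturated.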

How the data were processed

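Expression was measured on 16 2-colour Agilent arrays. Per the file headers the deposited scanner values, made with Agilent Feature Extraction 10.5.1.1, are spot intensity on a linear scale. The authors' deposited table gives log2 fold changes and a p-value per probe and contrast; the submitters' processing notes name limma without a version. The members and lists were chosen with earlier results of these data known.

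For the choice, processed signal intensity was used as deposited: log2 of the first over the second labelled condition, each array centred on its median, averaged over 4 arrays and then over probes of a name. For the tests, median signals were background-corrected with normexp (offset 50) and loess-normalized in limma 3.58.1 (R 4.3.3); 1116 control spots had weight 0, 175 outlier spots were dropped and saturated ones stayed in. The 8 arrays not used by the rule were fitted with 2 comparisons and a dye effect (5 residual degrees of freedom) over 7223 names, with Benjamini-Hochberg adjustment, tested on simulated data. Directions follow the labelled dyes. The number of arrays limits the precision.

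Names given are those at the edges of the rule, at most 2 per direction and comparison by smallest p or largest value, and the member whose probes differ most. The gene lists could not be matched to any name.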

Additional observations from a re-analysis of the deposited data

Results flagged for a closer look

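Of 68 groups of 4 arrays examined for the named members, 2 held an array far from the others, where chance flags about 5% of groups. The habituated response of contig8050 was 0.91 on array 4, against 0.07, 0.05 and -0.06 on arrays 1, 2 and 3. The non-habituated response of contig4603 was 2.26 on array 1, against 0.26, 0.32 and 0.05 on arrays 2, 3 and 4.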

How the results depend on the processing

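The members' median stayed above 0 in the rearing difference with EBF (0.36 to 0.68) and in the sum of both rearing differences (0.21 to 0.74) in every setting except the turning of the arrays of the first of these, added after seeing the data, which gave -0.57 and -0.74 with 0 members higher at an unadjusted p under 0.05 in either. The loop fit of 16 arrays uses the values that chose the members and treats all arrays as independent, although same-numbered arrays deviated together, so its calls support nothing about the members. It called 483 names and 41 members with EBF, 481 names and 28 members in the sum, and 0 names in hexane. In its sum 73 members were higher at an unadjusted p under 0.05, where 713 of all names were. Leaving out 1 array gave 0 to 25 names and 0 to 9 members with EBF, 0 to 1 names in the sum, and 0 to 9 names in hexane. At the unadjusted p, 37 to 71 members were higher with EBF, where 298 to 989 of all 7223 names were. In the sum 26 to 52 members were higher, where 248 to 650 of all names were. The highest member counts were without array 1 of the pair with EBF, where 504 (with EBF) and 401 (sum) of all names were higher. The 37 and 26 members were without its array 3, where 298 and 265 of all names were. The 9 names in hexane were without its array 4. The 2 names in hexane became 1 with processed signals, 4 with probes tested singly, 12 with array weights, and 0 with normexp without loess, without a dye effect, with one per pair, with a filter of 4 of 8 channels, with no filter or with each pair fitted alone. The rule kept 96 to 121 members without 1 of its arrays and 94 with a limit of 0.5. Of members chosen again without array 4 of the habituated response, 63 were higher at the unadjusted p in the sum. Of all names 410 were.

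With the arrays of the pair with EBF turned, the sum was -0.37 for contig8050 and -0.72 for contig3550, and the rearing difference was -1.10 for DW361863.1, -1.18 for contig3550, 0.21 for contig8909 and 0.58 for contig3961. With the second slide turned, the sum was 1.36 for contig3961 and 0.73 for contig4603, and the difference in hexane was -0.66 for contig8050, -0.40 for contig776, 0.45 for contig8245 and 0.80 for contig4603. The value with EBF was -0.4601 to 0.0426 for contig8909 on leaving out 1 array (above 0 without array 1) and 0.36 for contig3961 in the loop fit. Apart from the turned signs and the smaller or larger sets of arrays, the cause was not tested. Aquantile leaves the ratios as they are by construction.

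Same-numbered arrays of the 2 pairs tested had deviations that correlated at r of -0.15, 0.267, -0.156 and -0.226. These pairs have no condition in common, so the values cannot show whether equal numbers stand for shared extracts. With the number as a replicate block (correlation -0.089) 0 names were called with EBF and in the sum and 2 in hexane. At the unadjusted p, 66 and 38 members were higher with EBF and in the sum, where 597 and 381 of all names were. The medians stayed at 0.57 with EBF, 0.43 in the sum and -0.10 in hexane. Between the non-habituated response and the pair with EBF, on the same slide, same-numbered arrays deviated together at r of 0.386 to 0.672. These arrays also share a dye orientation. Shared extracts and a dye effect on these values were not tested.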
